A study of Homo sapiens with 21 samples.

Results

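The genes described here are 36 hypoxia targets outside glycolysis, measured by RNA-seq in BT-549 triple-negative breast cancer cells. They were chosen by symbol, as known targets of the hypoxia-inducible factors (HIFs) that are not glycolytic enzymes, and each symbol matched 1 of the 42339 gene identifiers in the count table. The choice names no measured value, but it was made with results of these comparisons in view. The levels, fold changes and counts below are therefore a description of these 36 genes, and nothing is read from their shares. All 36 passed the filter on low counts in every comparison.

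The 21 libraries were 3 each of 7 groups of BT-549 cells, all labelled wild type. The 2D cells grew as monolayers in RPMI1640 with serum. The 3D cells grew as mammospheres, which are spheres of unattached cells, in MammoCult medium, so growth format and medium cannot be told apart. These were controls at sphere passage 6, which the labels call Control and the paper calls vehicle in the GO-203 comparison. GO-203 libraries came from such 3D cells with 0.75 umol/L GO-203, a cell-penetrating peptide that blocks homodimers of the MUC1-C protein, and the length of treatment is not given in the sources used here. BT-549/tet-MUC1shRNA mammospheres at passage 6 and BT-549/tet-MYCshRNA mammospheres at passage 8 carried a doxycycline-inducible hairpin against MUC1 or MYC, and received 0.1% DMSO as vehicle or 500 ng/ml doxycycline (DOX). Each gene was targeted by 1 hairpin and no DOX-treated line without a targeting hairpin was analysed here, so hairpin and DOX effects cannot be told apart. The methods state that cells were cultured in triplicate, and p-values measure the spread between these 3 cultures of 1 cell line.

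HIFs are paired transcription factors whose alpha subunits are hydroxylated by oxygen-sensing enzymes and then degraded while oxygen is plentiful. When oxygen is low, or when the sensors are blocked, the alpha subunit pairs with ARNT and binds a short core, ACGTG or GCGTG, near its target genes. Outside glycolysis, the targets act in vessel growth, removal of mitochondria, collagen modification, histone demethylation, growth arrest and lipid storage. In breast cancer cells they are best known from solid tumor regions far from vessels.

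Library totals ran from 38026597 to 99751717 counts, and library size was 2.62 times larger at the top than at the bottom. In the tet-MYCshRNA line, DOX replicate 1 stood apart, at 52.8 and 36.3 against its replicates in chi-square divided by degrees of freedom, where all other replicate pairs lay between 4.36 and 21. The share of counts from the 13 mRNAs of mitochondrial DNA moved with the groups. It was 5.08% to 5.17% in 2D cells and 2.27% to 2.65% in 3D cells, 2.6% to 2.77% with vehicle and 6.35% to 6.72% with DOX in the tet-MUC1shRNA line. It was 3.32% to 4.36% with GO-203, and 3.37% to 4.08% with vehicle and 3.94% to 5.06% with DOX in the tet-MYCshRNA line. With counts scaled without these genes, 16 targets in place of 17 passed both thresholds on MUC1 silencing, and the counts in the other 3 main comparisons were the same. VIM, a mesenchymal filament gene, stood between 1067 and 2507 CPM (counts scaled to library size, with TMM factors over all 21 libraries). The epithelial markers EPCAM and CDH1 reached at most 0.122 and 1.55 CPM, although the labelled tissue is epithelial breast. ESR1 and PGR, the hormone receptors whose absence helps define this cancer, reached at most 1.49 and 0.0706 CPM, while ERBB2, the third receptor in that definition, lay between 18.2 and 42.3 CPM. Of the markers of other cells, PTPRC was at most 1.49 CPM, and PECAM1 lay between 0 and 0.0353 CPM in 2D cells and between 5.83 and 7.08 CPM in 3D cells. The sum of both ran from 1.09 to 1.49 CPM in 2D, 5.95 to 7.11 in 3D, 3.91 to 4.20 with vehicle and 2.7 to 3.38 with DOX in the tet-MUC1shRNA line. It was 6.4 to 7.10 CPM with GO-203, and 6.34 to 7.28 with vehicle and 8.80 to 10.4 with DOX in the tet-MYCshRNA line. The part of these markers in the results was not tested. In bulk RNA, fewer cells of a type and less RNA per cell cannot be told apart.

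Promoter sequence was set beside the expression values as a description. A gene's standing as a HIF target often rests on such cores near its start, so their share among these genes is not independent of the choice. RefSeq windows (GRCh38.p14) from 250 bases before to 50 bases after the transcription start were at hand for 27 of the 36 genes. A HIF core, ACGTG or GCGTG on either strand, lay in a window of 24 of these 27 genes, a share of 88.9%. The share was 52.4% of 27305 genes in the whole table and 68.5% of the 11728 genes tested in 3D vs. 2D cells. ACGTG alone lay in 17 of 27 genes (63.0%, against 24.9% and 31.5%). The E-box CACGTG, which MYC also binds and which holds ACGTG on both strands, lay in 10 of 27 genes (37.0%, against 8.77% and 11.9%). P4HA2, RORA and TMEM45A had no core in their windows, which says only that these letters are not there. A match is a description and not a site of binding. VEGFA, BNIP3L, LOXL2, JMJD6, NDRG1, HILPDA, FUT11, RAB20 and SPAG4 had no window in the table.

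The windows below belong to the genes at the ends of the range described further on. PPFIA4 had the largest fall on MUC1 silencing, BNIP3 the most core matches in a single window, DDIT4 the highest level per length in 3D cells, and ADM stayed far above its 2D level after silencing. LOX was lower in 3D cells, and TMEM45A fell steeply with no core in its window. Each is shown 5′ to 3′ on the gene's strand, cut to the bases outside annotated exons. Capitals mark the cores, written ACGTG or GCGTG on the shown strand and CACGT or CACGC where the core lies on the other strand. The PPFIA4 stretch is chr1:203026241-203026490 (plus strand) and holds 3 core matches, 2 of them in the E-box. The BNIP3 stretch is chr10:131981968-131982173 (minus strand) with 6 matches. DDIT4 is shown at chr10:72273705-72273918 (plus strand) with 3 matches and ADM at chr11:10304878-10305072 (plus strand) with 1 match. LOX is shown at chr5:122078414-122078509 (minus strand) with 1 match and TMEM45A at chr3:100492369-100492618 (plus strand) with 0 matches. These counts cover the shown stretches alone. The full windows from which the DDIT4 and LOX stretches were cut hold 4 matches each, and the further LOX windows hold 2 each.
PPFIA4: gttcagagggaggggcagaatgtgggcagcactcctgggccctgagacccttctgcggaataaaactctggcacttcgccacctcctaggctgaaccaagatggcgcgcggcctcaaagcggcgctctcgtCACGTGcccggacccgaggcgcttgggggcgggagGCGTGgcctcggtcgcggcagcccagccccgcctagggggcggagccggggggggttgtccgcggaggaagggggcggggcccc
BNIP3: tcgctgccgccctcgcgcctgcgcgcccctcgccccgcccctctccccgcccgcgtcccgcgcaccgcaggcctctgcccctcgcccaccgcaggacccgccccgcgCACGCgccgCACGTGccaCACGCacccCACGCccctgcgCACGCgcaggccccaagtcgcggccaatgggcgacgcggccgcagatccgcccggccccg
DDIT4: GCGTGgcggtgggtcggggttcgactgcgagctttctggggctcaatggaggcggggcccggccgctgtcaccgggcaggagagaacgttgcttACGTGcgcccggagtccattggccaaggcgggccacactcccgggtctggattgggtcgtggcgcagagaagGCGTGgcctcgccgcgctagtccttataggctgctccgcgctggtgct
ADM: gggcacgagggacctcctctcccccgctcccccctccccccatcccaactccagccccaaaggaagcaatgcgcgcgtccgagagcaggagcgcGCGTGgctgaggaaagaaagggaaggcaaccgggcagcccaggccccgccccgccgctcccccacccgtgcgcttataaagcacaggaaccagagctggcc
LOX: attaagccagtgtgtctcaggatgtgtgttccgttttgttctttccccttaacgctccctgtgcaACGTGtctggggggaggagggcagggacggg
TMEM45A: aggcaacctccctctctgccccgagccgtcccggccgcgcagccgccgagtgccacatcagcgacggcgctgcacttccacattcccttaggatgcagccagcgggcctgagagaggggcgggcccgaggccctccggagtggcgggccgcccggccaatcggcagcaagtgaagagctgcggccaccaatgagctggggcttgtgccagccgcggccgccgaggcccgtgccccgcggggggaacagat

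The targeted genes were read first. MUC1 stood at 101, 82.4 and 85.3 CPM in vehicle-treated tet-MUC1shRNA mammospheres and at 20.2, 21.6 and 23.1 CPM with DOX, and the log2 fold change was -2.06 ± 0.074 (± SE, 3 libraries a group). MYC stood at 446, 425 and 382 CPM in vehicle-treated tet-MYCshRNA mammospheres and at 239, 282 and 304 CPM with DOX, and changed by -0.62 ± 0.080 on the log2 scale. Both targeted genes were lower with DOX in every library, and the fall of MYC was the smaller. MUC1 was itself higher on MYC silencing, at 67.5, 68.1 and 72.6 CPM with vehicle and 136, 196 and 171 CPM with DOX. GO-203 acts on the protein, and MUC1 mRNA was 213, 219 and 177 CPM in 3D cells and 251, 267 and 238 CPM with GO-203.

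In 3D vs. 2D cells, 30 of the 36 targets were upregulated and 6 were downregulated at an adjusted p below 0.1 (edgeR's quasi-likelihood test, Benjamini-Hochberg over all genes tested). Among all 19190 genes tested, 32.0% were called higher and 31.7% lower. With a log2 fold change above 1.5 as well, 17 targets were higher, as were 6.90% of all genes. No target was lower by that amount in edgeR, at an unadjusted p below 0.05 or in DESeq2, and 9.29% of all genes were lower by it. The median log2 fold change of the 36 was 1.36, and that of all genes was -0.0074. The groups of 3 did not overlap for any of the 36, as for 64.1% of all genes. CCNG2 lost its call without replicate 3 of 2D (log2 fold change -0.14) or replicate 1 of 3D (-0.12), and its full value was -0.20.

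Silencing MUC1 downregulated all 36 targets, 17 of them by more than 1.5 on the log2 scale. Of the 19220 genes tested, 31.6% were called lower, 30.7% higher, 3.08% lower past both thresholds and 5.74% higher past both. No target was higher in edgeR, at an unadjusted p below 0.05 or in DESeq2. The median log2 fold change of the 36 was -1.42, against 0.024 over all genes. The vehicle and DOX libraries did not overlap for 35 of 36 targets, as for 61.5% of all genes, and MAFF was the exception. With scaling by library size alone, the median of all genes in this comparison moved to 0.19, MAFF (-0.12, adjusted p = 0.126 in edgeR) lost its call, and 14 targets passed both thresholds.

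GO-203 lowered 19 targets and raised 1 against 3D cells, with 12.9% of the 18488 genes tested called lower and 11.1% higher. None passed a log2 fold change of 1.5 in edgeR, at an unadjusted p below 0.05 or in DESeq2, and 0.260% of all genes were lower and 0.498% higher past both thresholds. The median was -0.18, against 0.015 over all genes. The groups did not overlap for 18 of 36 targets, as for 34.0% of all genes. MYC silencing lowered 17 targets and raised 10, with 28.1% of the 19951 genes tested called lower and 30.3% higher. RAB20 alone passed both thresholds, beside 3.39% of all genes lower and 7.06% higher by that rule, and no target was higher past both in edgeR, at an unadjusted p below 0.05 or in DESeq2. The median was -0.12, against 0.0088 over all genes, and 27 of 36 targets did not overlap, as for 59.2% of all genes. Without DOX replicate 1, which stands apart, 17 targets were lowered, 12 raised and 0 passed both thresholds. The count of 10 raised targets was 6 without vehicle replicate 1 or without vehicle replicate 2.

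**Figure D1:**
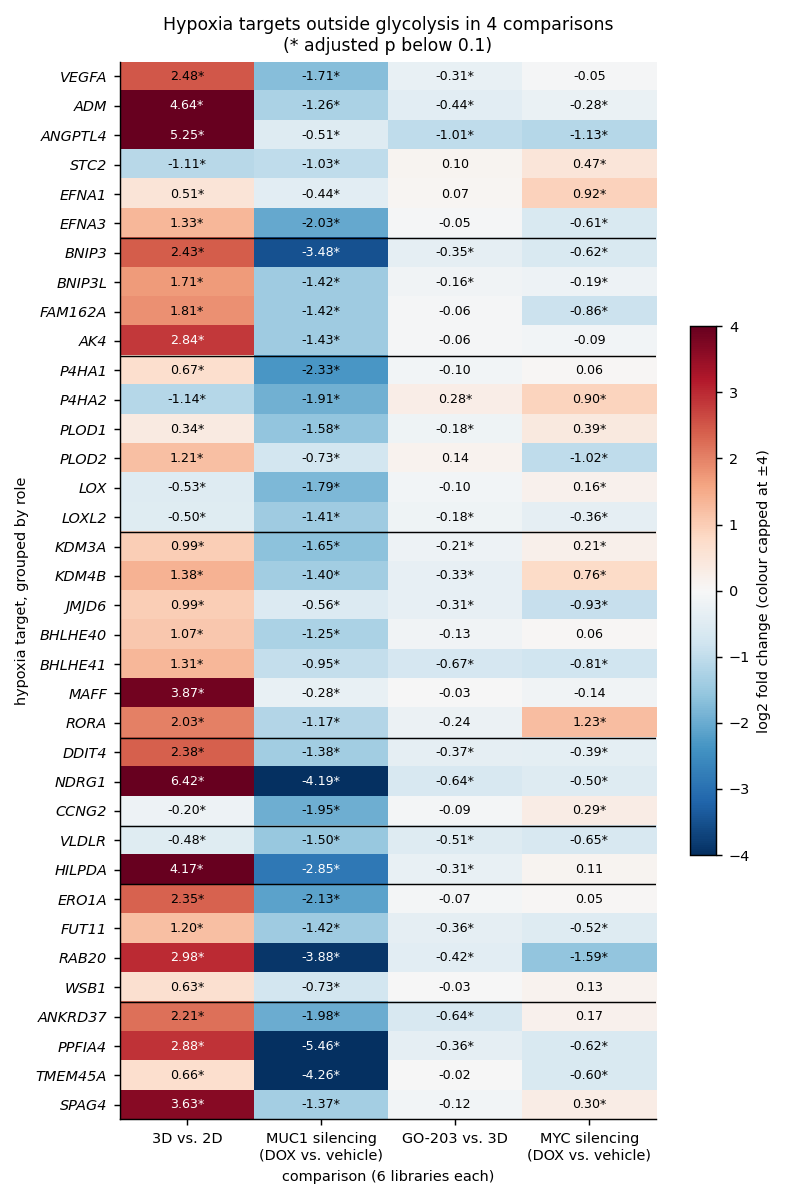
Log2 fold changes of the 36 hypoxia targets (rows, grouped by role) in 4 comparisons of 6 libraries each (columns); red is higher, blue lower, and an asterisk marks an adjusted p below 0.1. The MUC1 silencing column is negative throughout, from -5.46 for PPFIA4 to -0.28 for MAFF, while the GO-203 column lies between -1.01 and 0.28.

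Among the 6 secreted signals and vessel growth genes, 5 were higher and STC2 was lower in 3D vs. 2D cells, and all 6 fell on MUC1 silencing. Over all genes tested, 32.0% were higher and 31.7% lower in 3D cells, and 31.6% were lower on MUC1 silencing. The roles used here are small groups, and nothing is read from their counts. VEGFA, the growth factor that makes vessels sprout, stood at 57.1, 60.4 and 65.0 CPM in 2D cells and at 332, 327 and 323 CPM in 3D cells. VEGFA in the tet-MUC1shRNA line was 625, 488 and 522 CPM with vehicle and 159, 182 and 163 CPM with DOX. Neither pair of groups overlapped, with log2 fold changes of 2.48 ± 0.060 in 3D cells and -1.71 ± 0.068 on silencing. VEGFA was 331, 349 and 347 CPM with vehicle and 309, 348 and 344 CPM with DOX in the tet-MYCshRNA line, where the groups overlapped (-0.055 ± 0.061, edgeR adjusted p = 0.482).

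ADM encodes adrenomedullin, a peptide that widens vessels, and rose from 3.88, 3.10 and 2.22 CPM in 2D cells to 70.8, 69.1 and 78.9 CPM in 3D cells. ADM was 169.8, 129 and 132 CPM with vehicle and 60.5, 64.4 and 55.9 CPM with DOX in the tet-MUC1shRNA line, so the silenced libraries stayed above every 2D library. The log2 fold changes were 4.64 ± 0.13 and -1.26 ± 0.075. ANGPTL4, an inhibitor of lipoprotein lipase that also acts on vessels, rose from 5.69, 5.77 and 4.55 CPM to 206, 181 and 199 CPM in 3D cells. ANGPTL4 fell from 159, 122 and 132 CPM to 96.6, 107 and 89.4 CPM on MUC1 silencing, a log2 fold change of -0.51 ± 0.071. It had the largest GO-203 response of the 36, with 94.5, 96.0 and 97.3 CPM in the treated libraries and a log2 fold change of -1.01 ± 0.060. All 3 treated libraries lay below all 3 control ones. ANGPTL4 also fell on MYC silencing, from 219, 186 and 155 CPM to 56.7, 111 and 91.6 CPM (-1.13 ± 0.20), with the lowest value in DOX replicate 1 and a log2 fold change of -0.92 without it.

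EFNA3, an ephrin ligand bound to the cell surface, was 2.90, 2.83 and 3.30 CPM in 2D cells and 8.0, 7.12 and 6.75 CPM in 3D cells. EFNA3 was 8.17, 6.86 and 5.42 CPM with vehicle and 1.72, 1.68 and 1.60 CPM with DOX, below every 2D library after silencing. The log2 fold changes were 1.33 ± 0.14 and -2.03 ± 0.16. EFNA3 shares 43.9% of its exon bases with the readthrough gene EFNA4-EFNA3 on the same strand, so its counts are uncertain. EFNA1, a related ephrin, changed by 0.51 in 3D cells, -0.44 on MUC1 silencing and 0.92 on MYC silencing. Both ephrin genes neighbour MUC1 on chromosome 1, EFNA1 at 50.9 kb and EFNA3 at 98.3 kb. STC2, a secreted regulator of calcium and phosphate, was lower in 3D cells (-1.11), lower on MUC1 silencing (-1.03) and higher on MYC silencing (0.47).

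The 4 mitophagy and mitochondria genes were all higher in 3D vs. 2D cells by more than 1.5 on the log2 scale, and all 4 fell on MUC1 silencing. By these rules 6.90% of all genes were higher in 3D cells and 31.6% lower on MUC1 silencing. BNIP3, a mitophagy receptor on the outer mitochondrial membrane, was 57.2, 59.2 and 62.3 CPM in 2D cells and 309, 299 and 321 CPM in 3D cells. BNIP3 was 357, 290.0 and 294 CPM with vehicle and 27.1, 31.2 and 26.0 CPM with DOX. The silenced libraries lay below the 2D libraries, with log2 fold changes of 2.43 ± 0.059 in 3D cells and -3.48 ± 0.073 on silencing. The annotation names 44 pseudogenes of BNIP3, so its counts carry the uncertainty of shared reads. MYC silencing took BNIP3 from 214, 211 and 208 CPM to 127, 144 and 146 CPM (-0.62 ± 0.061), a smaller fall with no overlap.

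BNIP3L, the related receptor also called NIX, was 296, 339 and 352 CPM in 2D cells and 982, 1021 and 1103 CPM in 3D cells. BNIP3L was 1503, 1184 and 1394 CPM with vehicle and 518, 551 and 467 CPM with DOX, and stayed above 2D after silencing. The log2 fold changes were 1.71 ± 0.065 and -1.42 ± 0.063. FAM162A, a mitochondrial protein linked to cell death in hypoxia, was 54.1, 58.1 and 55.8 CPM in 2D cells and 181, 183 and 204 CPM in 3D cells. FAM162A was 275, 251 and 245 CPM with vehicle and 102, 101 and 87.1 CPM with DOX. It also stayed above 2D, with log2 fold changes of 1.81 ± 0.063 and -1.42 ± 0.052. AK4, an adenylate kinase of the mitochondrial matrix, was 86.5, 85.2 and 88.6 CPM in 2D cells and 595, 613 and 582 CPM in 3D cells. AK4 was 578, 511 and 553 CPM with vehicle and 208, 219 and 187 CPM with DOX. The groups were apart in both comparisons (2.84 ± 0.055 and -1.43 ± 0.050). On MYC silencing FAM162A fell (-0.86), whereas AK4 gave -0.094 (edgeR adjusted p = 0.193).

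The 6 collagen hydroxylation and crosslinking genes split in 3D vs. 2D cells, with P4HA1, PLOD1 and PLOD2 higher and P4HA2, LOX and LOXL2 lower, and none passed 1.5 on the log2 scale. All 6 fell on MUC1 silencing, 4 of them past both thresholds, beside 31.6% and 3.08% of all genes. In 3D cells 32.0% of all genes were higher and 31.7% lower. P4HA1, the catalytic subunit of a collagen prolyl hydroxylase, was 161, 179 and 201 CPM in 2D cells and 270.0, 269 and 290.5 CPM in 3D cells. P4HA1 was 215, 199 and 195 CPM with vehicle and 37.5, 47.8 and 36.4 CPM with DOX. The silenced level lay far below that of 2D cells, with log2 fold changes of 0.67 ± 0.069 in 3D cells and -2.33 ± 0.071 on silencing. P4HA2, the second catalytic subunit, was 75.1, 110.2 and 118 CPM in 2D cells and 48.2, 40.2 and 44.4 CPM in 3D cells. P4HA2 was 47.9, 38.8 and 40.5 CPM with vehicle and 11.0, 12.7 and 10.3 CPM with DOX. It fell in both comparisons (-1.14 ± 0.12 and -1.91 ± 0.083), and was the 1 target called higher with GO-203 (0.28 ± 0.064). That GO-203 call was lost with all 21 libraries in 1 fit. On MYC silencing P4HA2 rose from 32.6, 29.6 and 31.0 CPM to 49.8, 68.1 and 57.5 CPM.

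PLOD1, a lysyl hydroxylase that prepares collagen for crosslinks, was 215, 269 and 244 CPM in 2D cells and 304, 288 and 297 CPM in 3D cells. PLOD1 was 306, 243 and 259 CPM with vehicle and 91.7, 98.6 and 81.8 CPM with DOX. The rise in 3D cells was small (0.34 ± 0.067) and the fall on silencing larger (-1.58 ± 0.066). LOX, the secreted oxidase that forms the crosslinks, was 1761, 1669.9 and 1848 CPM in 2D cells and 1132, 1186 and 1201 CPM in 3D cells. LOX was 1492, 1190.4 and 1333 CPM with vehicle and 385, 445 and 339 CPM with DOX. It had the highest level per length of all 36 in 2D cells, at 314 RPKM, and fell in both comparisons (-0.53 ± 0.052 and -1.79 ± 0.072). LOXL2, a relative of LOX, changed by -0.50 in 3D cells and -1.41 on MUC1 silencing. PLOD2, another lysyl hydroxylase, rose in 3D cells (1.21), fell on MUC1 silencing (-0.73) and fell further on MYC silencing (-1.02).

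All 7 chromatin and transcription genes were higher in 3D vs. 2D cells, and all 7 fell on MUC1 silencing. The shares over all genes were 32.0% and 31.6%. KDM3A, a demethylase of histone H3 lysine 9, was 54.0, 54.5 and 56.6 CPM in 2D cells and 104, 106 and 105 CPM in 3D cells. KDM3A was 100.1, 99.6 and 93.0 CPM with vehicle and 31.0, 31.2 and 31.5 CPM with DOX. The silenced libraries lay below 2D, with log2 fold changes of 0.99 ± 0.056 and -1.65 ± 0.053. MAFF, a small basic leucine zipper factor, was 5.60, 3.88 and 4.07 CPM in 2D cells and 66.9, 59.2 and 63.5 CPM in 3D cells. MAFF was 132, 117 and 100.2 CPM with vehicle and 98.4, 102 and 88.1 CPM with DOX. It rose steeply in 3D cells (3.87 ± 0.11) and had the smallest fall of the 36 on MUC1 silencing (-0.28 ± 0.069), with overlapping libraries.

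RORA, a nuclear receptor known from the circadian clock, was 1.07, 1.83 and 1.16 CPM in 2D cells and 5.42, 5.85 and 4.82 CPM in 3D cells. RORA was 9.54, 7.47 and 8.25 CPM with vehicle and 4.08, 2.89 and 4.44 CPM with DOX, and 3.85, 3.96 and 3.99 and 10.3, 8.71 and 8.86 CPM in the tet-MYCshRNA line. It therefore moved in opposite directions, with -1.17 ± 0.15 on MUC1 silencing and 1.23 ± 0.13 on MYC silencing. KDM4B, another histone demethylase, showed the same split (-1.40 and 0.76) after a rise of 1.38 in 3D cells. JMJD6, an oxygenase with a jumonji domain, rose by 0.99 in 3D cells and fell more on MYC silencing (-0.93) than on MUC1 silencing (-0.56). The difference between these falls was not called when any 1 of 3 libraries was left out. BHLHE40 and BHLHE41, repressors that bind E-boxes, rose by 1.07 and 1.31 in 3D cells. On MUC1 silencing BHLHE40 gave -1.25 and BHLHE41 gave -0.95.

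NDRG1, a stress-responsive gene linked to growth arrest, had the largest rise of the 36 in 3D vs. 2D cells. NDRG1 was 4.91, 8.01 and 5.72 CPM in 2D cells and 530.4, 500.4 and 510.1 CPM in 3D cells, and its log2 fold change was 6.42 ± 0.12. With MUC1 silencing NDRG1 went from 635, 405 and 496 CPM to 26.4, 34.9 and 22.9 CPM (-4.19 ± 0.13). Every silenced library still lay above every 2D library. GO-203 gave 314, 315 and 346 CPM, below all 3D libraries (-0.64 ± 0.054). On MYC silencing NDRG1 went from 733, 726 and 738 CPM to 399, 616 and 557 CPM (-0.50 ± 0.12), and its log2 fold change was -0.36 without DOX replicate 1, the lowest library.

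DDIT4, also called REDD1, restrains mTORC1 and was 109, 138 and 131 CPM in 2D cells and 668, 582 and 635 CPM in 3D cells. DDIT4 was 1055, 957 and 901 CPM with vehicle and 380.1, 419 and 332 CPM with DOX. It had the highest level per length of the 36 in 3D cells, at 297 RPKM, with log2 fold changes of 2.38 ± 0.078 and -1.38 ± 0.059. CCNG2, a cyclin that slows the cell cycle, was 90.5, 102 and 110.0 CPM in 2D cells and 78.8, 84.4 and 90.2 CPM in 3D cells. CCNG2 was 152, 132 and 123 CPM with vehicle and 36, 37.6 and 31.9 CPM with DOX. Its fall on silencing (-1.95 ± 0.065) was far larger than its difference between 3D and 2D cells (-0.20 ± 0.071).

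HILPDA, a lipid droplet protein that blocks fat breakdown, was 4.48, 5.48 and 4.87 CPM in 2D cells and 85.7, 83.3 and 88.3 CPM in 3D cells. HILPDA was 231, 174 and 165 CPM with vehicle and 23.0, 32.1 and 24.0 CPM with DOX. The groups were apart in both comparisons (4.17 ± 0.079 and -2.85 ± 0.11), and silenced libraries stayed above 2D. VLDLR, a receptor that takes up lipoproteins, was 78.6, 79.3 and 85.3 CPM in 2D cells and 59.7, 53.9 and 54.7 CPM in 3D cells. VLDLR was 76.4, 56.9 and 68.0 CPM with vehicle and 22.0, 25.7 and 23.7 CPM with DOX. It was lower in 3D cells (-0.48 ± 0.062) and lower again on silencing (-1.5 ± 0.083). Of the 36, VLDLR was among those that also fell with GO-203 (-0.51) and on MYC silencing (-0.65).

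The 4 genes of the secretory pathway, membrane traffic and ubiquitin ligases were all higher in 3D vs. 2D cells and all lower on MUC1 silencing. So were 32.0% and 31.6% of all genes in these comparisons. ERO1A, the oxidase that drives disulfide bonds in the endoplasmic reticulum, was 179.9, 169 and 184 CPM in 2D cells and 844, 882 and 889 CPM in 3D cells. ERO1A was 980.4, 777 and 884 CPM with vehicle and 199, 216 and 192 CPM with DOX. Silencing brought it close to its 2D level, with log2 fold changes of 2.35 ± 0.056 and -2.13 ± 0.062. RAB20, a small GTPase of endosomes, was 1.07, 1.17 and 0.988 CPM in 2D cells and 9.34, 6.19 and 9.04 CPM in 3D cells. RAB20 was 7.60, 5.69 and 5.11 CPM with vehicle and 0.508, 0.512 and 0.180 CPM with DOX, where it rested on 8 to 36 counts a library. The groups were apart in both comparisons (2.98 ± 0.19 and -3.88 ± 0.25). On MYC silencing RAB20 went from 4.54, 4.39 and 3.81 CPM to 0.633, 2.01 and 1.61 CPM (-1.59 ± 0.30), and without DOX replicate 1 the value was -1.26, short of the fold threshold. FUT11, a fucosyltransferase of the Golgi, gave 1.20 in 3D cells and -1.42 on MUC1 silencing. WSB1, a substrate receptor of a ubiquitin ligase, gave 0.63 and -0.73.

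All 4 other hypoxia-signature genes were higher in 3D vs. 2D cells and all 4 fell on MUC1 silencing, beside 32.0% and 31.6% of all genes. PPFIA4, a liprin scaffold protein, was 2.92, 2.35 and 2.31 CPM in 2D cells and 17.5, 18.8 and 17.1 CPM in 3D cells. PPFIA4 was 16.8, 10.8 and 14.3 CPM with vehicle and 0.326, 0.270 and 0.383 CPM with DOX, where it rested on 17 to 19 counts a library. Its fall on silencing (-5.46 ± 0.20) was the largest of the 36 and took it below every 2D library, after a rise of 2.88 ± 0.12 in 3D cells. TMEM45A, a transmembrane protein, was 13.4, 17.9 and 14.4 CPM in 2D cells and 22.7, 22.4 and 24.6 CPM in 3D cells. TMEM45A was 75.8, 55.7 and 65.3 CPM with vehicle and 3.46, 3.97 and 2.75 CPM with DOX. The rise in 3D cells was modest (0.66 ± 0.10) and the fall on silencing steep (-4.26 ± 0.11).

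ANKRD37, an ankyrin repeat protein, was 1.23, 0.979 and 0.864 CPM in 2D cells and 4.59, 4.0 and 4.97 CPM in 3D cells. ANKRD37 was 5.32, 4.81 and 4.94 CPM with vehicle and 1.05, 1.49 and 1.26 CPM with DOX. The groups were apart in both comparisons (2.21 ± 0.20 and -1.98 ± 0.17). ANKRD37 shares 40.3% of its exon bases with UFSP2 on the other strand, and the strand setting of the counting is not given in the sources used here. SPAG4, a protein of the nuclear envelope, was 1.90, 1.92 and 1.87 CPM in 2D cells and 22.5, 24.8 and 20.4 CPM in 3D cells. SPAG4 was 13.2, 11.5 and 13.9 CPM with vehicle and 5.46, 5.05 and 4.53 CPM with DOX. It too was apart in both (3.63 ± 0.12 and -1.37 ± 0.11), and stayed above 2D after silencing.

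**Figure D2:**
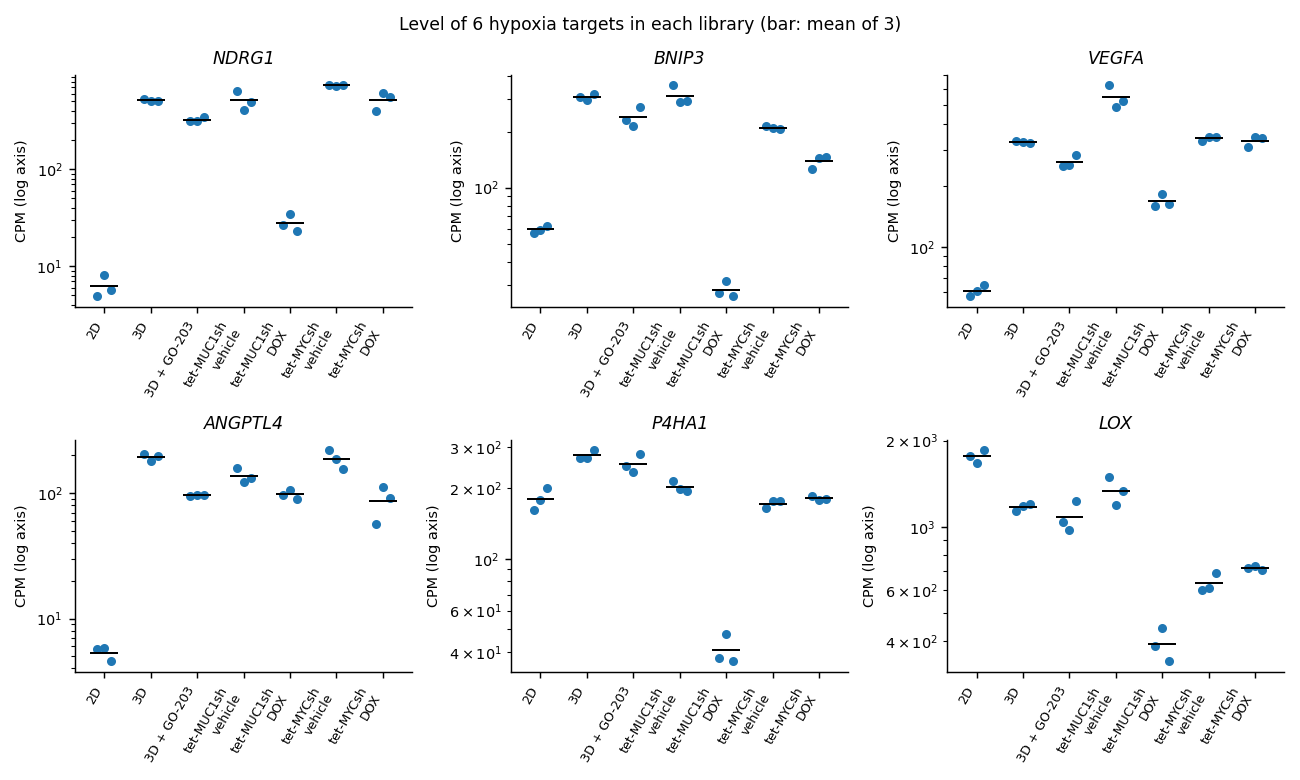
CPM (log axis) of 6 hypoxia targets in each of the 21 libraries, by group, with the mean of 3 libraries as a bar. NDRG1 and ANGPTL4 stay above 2D in DOX-treated tet-MUC1shRNA mammospheres, while the means of BNIP3 and P4HA1 drop from above 2D to below it and LOX lies below 2D with and without DOX.

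The level left after MUC1 silencing was then set against that of 2D cells, a comparison chosen after the levels were seen. Of the 36 targets, 17 were higher and 17 lower in DOX-treated tet-MUC1shRNA mammospheres than in 2D cells, beside 36.9% of the 20450 genes tested called higher and 36% lower. Past both thresholds 7 were higher and 8 lower, beside 12.3% and 10.4% of all genes. The vehicle-treated mammospheres of the same line had 31 targets higher and 5 lower than 2D cells, beside 36.1% and 37.8% of 19018 genes. With vehicle, 20 were higher and none lower past both thresholds, the lowest value being -1.21, beside 10.4% and 11.7% of all genes. ANKRD37 (0.34) and JMJD6 (-0.073) were not called after silencing. These comparisons share the 2D libraries, and the values are given side by side. MAFF (4.45), ADM (4.34) and ANGPTL4 (4.22) kept the highest levels against 2D. P4HA2 (-3.13), PPFIA4 (-2.94), LOXL2 (-2.23) and LOX (-2.15) were lowest. Of the 6 collagen genes, 5 ended below 2D, and PLOD2 (0.25) ended above it. LOX (-0.35), LOXL2 (-0.82) and P4HA2 (-1.21) were already below 2D with vehicle, while P4HA1 (0.21) and PLOD1 (0.19) were above it. The mitophagy receptors parted, with BNIP3 at -1.06 ± 0.068 and BNIP3L at 0.66 ± 0.061. ERO1A ended at 0.21 after 2.35 with vehicle, and NDRG1 at 2.20 after 6.39.

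**Figure D3:**
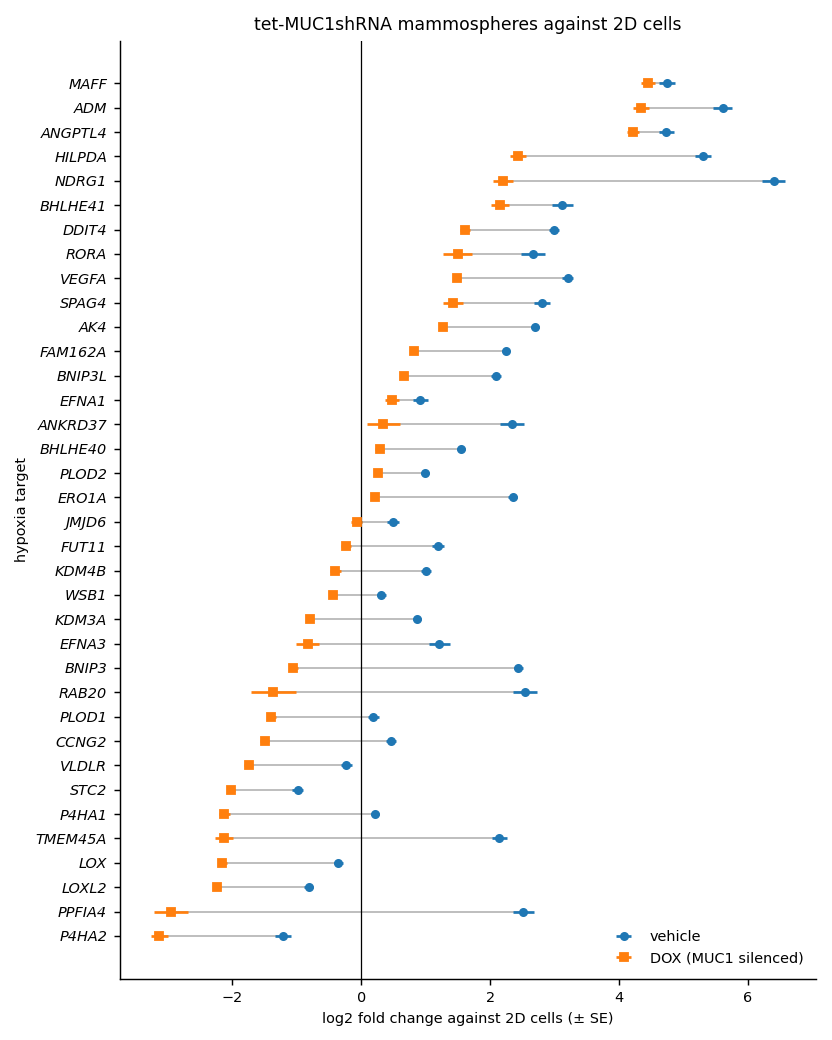
Log2 fold change against 2D cells (± SE, 3 libraries a group) of each target in tet-MUC1shRNA mammospheres with vehicle (circles) and with DOX (squares), ordered by the DOX value. The squares run from -3.13 for P4HA2 to 4.45 for MAFF, and 17 lie above 2D by the test.

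The DOX effects of the MUC1 and MYC hairpins were compared by an interaction over the 12 libraries of both lines. The log2 difference, MUC1 minus MYC silencing, was called below 0 for 31 targets and above 0 for 3, beside 26.9% and 26.0% of the 21585 genes tested. Past both thresholds the difference was below 0 for 19 targets, beside 8.56% of all genes, and above 0 for none, the highest being 0.61, beside 7.59% of all genes. PPFIA4 (-4.85 ± 0.25), NDRG1 (-3.71 ± 0.22) and TMEM45A (-3.68 ± 0.18) differed most. The 3 that fell more on MYC silencing were ANGPTL4 (0.61 ± 0.23), JMJD6 (0.36 ± 0.14) and PLOD2 (0.28 ± 0.10). The first lost its call without vehicle replicate 2 of the tet-MUC1shRNA line or vehicle replicate 1 of the tet-MYCshRNA line (0.48 to 0.53). JMJD6 lost it without any of 3 libraries (0.30 to 0.32), which were DOX replicate 2 and vehicle replicate 3 of the tet-MUC1shRNA line and vehicle replicate 1 of the tet-MYCshRNA line. BHLHE41 (-0.16, edgeR adjusted p = 0.519) and MAFF (-0.16, edgeR adjusted p = 0.344) were not called, and with scaling by library size alone their differences were above 0 (0.048 and 0.046). By direction, 17 targets fell in both lines, 9 fell on MUC1 silencing with no call on MYC silencing, and 10 fell on MUC1 silencing and rose on MYC silencing. Of the 9, HILPDA (0.22), BHLHE40 (0.21) and ANKRD37 (0.44) were called higher on MYC silencing without DOX replicate 1 of the tet-MYCshRNA line. Of all genes lower on MUC1 silencing and tested in both lines, 38.5% fell, 28.9% were not called and 32.6% rose on MYC silencing. The 10 targets were CCNG2, EFNA1, KDM3A, KDM4B, LOX, P4HA2, PLOD1, RORA, SPAG4 and STC2. On MYC silencing, the fall of ADM lost its call without vehicle replicate 1 or 2 (-0.28 to -0.27) and that of BNIP3L without replicate 3 of either group (-0.16 to -0.15). The rise of KDM3A lost it without vehicle replicate 1 or 2 (0.17) and with no low-count filter (0.18, edgeR adjusted p = 0.114), and that of LOX without vehicle replicate 1 or 2 or DOX replicate 1 or 2 (0.11 to 0.15). The LOX rise was also not called in DESeq2 (0.15, adjusted p = 0.151), with a replicate block (0.17, edgeR adjusted p = 0.156) and with RLE factors, library size alone or no filter. SPAG4 lost its call without any vehicle library or DOX replicate 2 (0.13 to 0.31), and it was not called with the block (0.29, edgeR adjusted p = 0.115) or library size alone. PLOD1 lost it without any library but DOX replicate 1 (0.20 to 0.41). The lines also differ in sphere passage and in how far their target mRNA fell, which cannot be told apart from the hairpin. MUC1 mRNA itself moved in opposite directions, at -2.06 on MUC1 silencing and 1.25 on MYC silencing. The part of this in the differences was not tested.

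**Figure D4:**
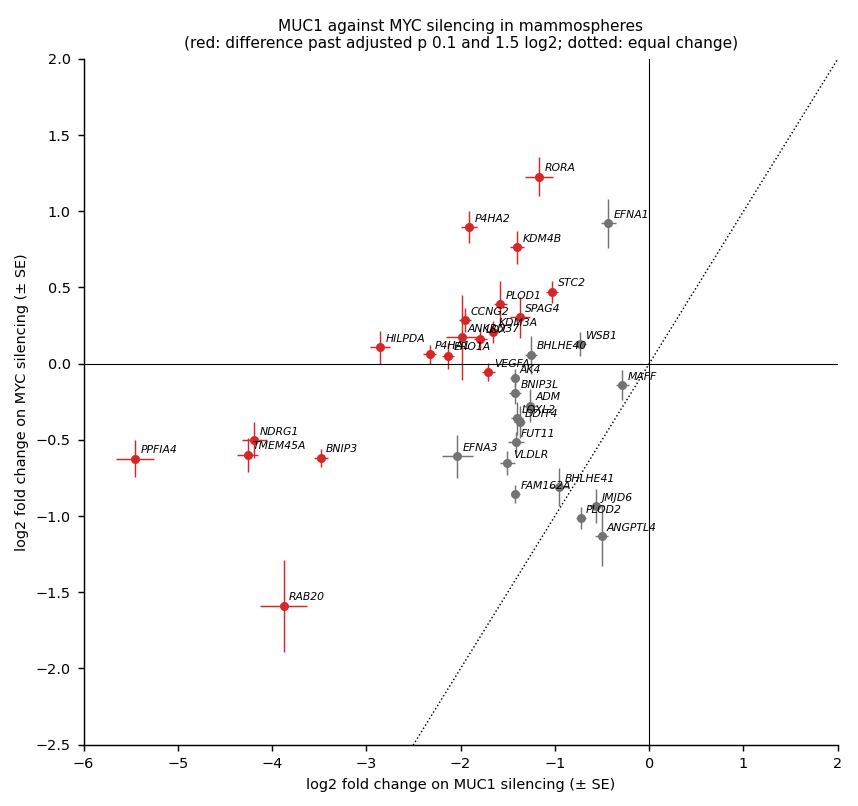
Log2 fold change on MUC1 silencing (x axis) against that on MYC silencing (y axis) for each target, with SE bars, and a dotted line where both would be equal. The 19 red points passed both thresholds in the interaction test and lie left of the line, and RORA, at -1.17 and 1.23, is highest.

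GO-203 responses were far smaller than those to MUC1 silencing, although both groups were mammospheres at passage 6. In a comparison added after the data were seen, the log2 difference, MUC1 silencing minus GO-203, was called below 0 for 34 targets and above 0 for 1, beside 24.1% and 20.8% of the 20829 genes tested. Past both thresholds it was below 0 for 12 targets, beside 3.51% of all genes, and above 0 for none, the highest being 0.50, beside 5.07%. The single target that GO-203 lowered more was ANGPTL4, with a difference of 0.50 ± 0.10, and BHLHE41 was not called (-0.28, edgeR adjusted p = 0.274). Of the 34, JMJD6 (-0.24) and MAFF (-0.26) each lost the call without any of 5 libraries, at -0.23 to -0.20 and -0.25 to -0.15. For JMJD6 these were 3D replicate 3, GO-203 replicate 1, vehicle replicates 1 and 2 and DOX replicate 1, and for MAFF they were 3D replicate 2, GO-203 replicates 1 and 3, vehicle replicate 1 and DOX replicate 3. After ANGPTL4, the largest GO-203 falls were BHLHE41 (-0.67 ± 0.16), NDRG1 (-0.64 ± 0.054), ANKRD37 (-0.64 ± 0.16) and VLDLR (-0.51 ± 0.064). TMEM45A, which fell by 4.26 on MUC1 silencing, was 22.7, 22.4 and 24.6 CPM in 3D cells and 22.7, 19.0 and 26.2 CPM with GO-203. Its libraries overlapped, with a log2 fold change of -0.015 ± 0.090 and an edgeR adjusted p of 0.937. P4HA1 and ERO1A likewise gave -0.10 and -0.070 and were not called. The GO-203 calls of BNIP3L (-0.16 to -0.093), KDM3A (-0.18 to -0.17), LOXL2 (-0.14), PLOD1 (-0.16) and RAB20 (-0.39 to -0.32) were lost when 1 library was left out, with these values then. The libraries at issue were 3D replicate 3 and GO-203 replicates 1 and 2 for BNIP3L, GO-203 replicates 1 and 2 for KDM3A, 3D replicate 1 for LOXL2 and PLOD1, and all but 3D replicate 2 and GO-203 replicate 3 for RAB20. The lines, the agents and possibly the lengths of treatment differed between these experiments, and these cannot be told apart.

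**Figure D5:**
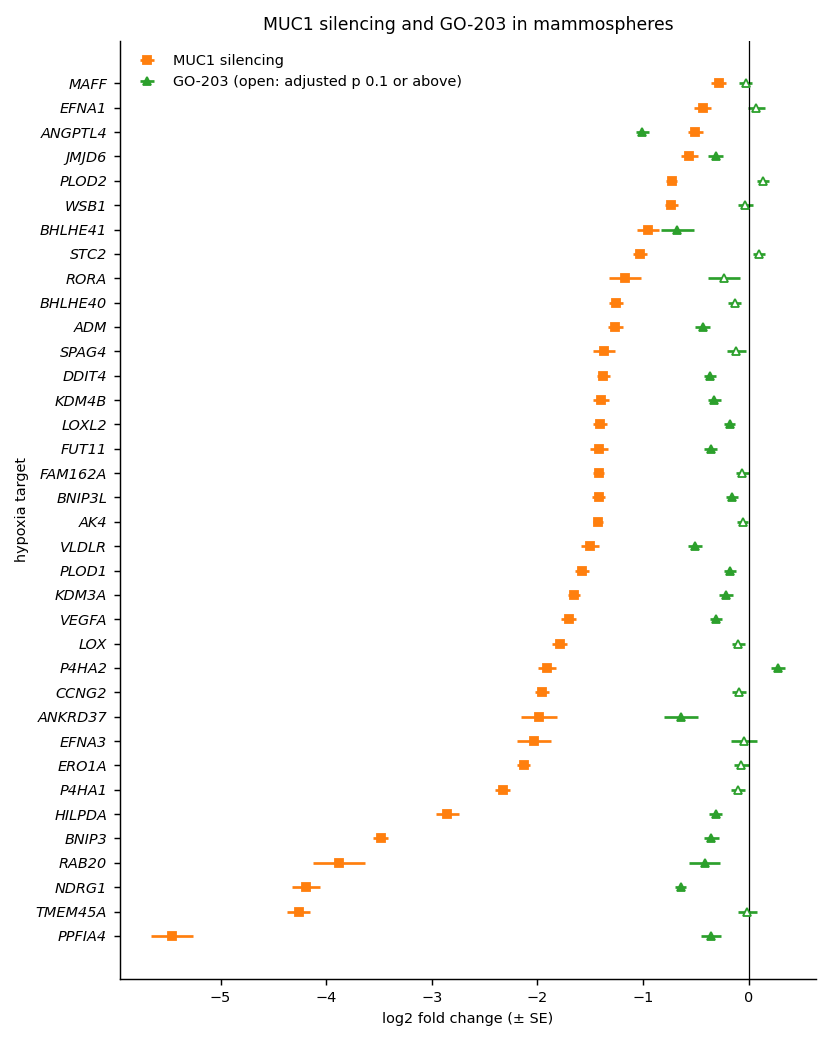
Log2 fold change (± SE) of each target on MUC1 silencing (squares) and with GO-203 (triangles, open where not called), ordered by the MUC1 value. All squares lie below 0, and the triangles stay between -1.01 for ANGPTL4 and 0.28 for P4HA2.

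Vehicle-treated tet-MUC1shRNA mammospheres and 3D cells without a hairpin differed in many of these genes without DOX. MUC1 mRNA was also lower in every library of that vehicle line than in any 3D library, by the values given above. Of the 36, 15 were higher and 13 lower in the vehicle line, beside 31.8% and 30.7% of the 18409 genes tested. BHLHE41 (1.79 ± 0.13) alone passed both thresholds, beside 4.52% of all genes higher and 4.05% lower by that rule. TMEM45A (1.47) and HILPDA (1.13) were next, and SPAG4 (-0.83) was lowest. Vehicle-treated tet-MYCshRNA mammospheres had 26 targets higher and 6 lower than 2D cells, beside 33.8% and 32.4% of 19948 genes. Past both thresholds 17 were higher and 3 lower, beside 7.76% and 9.39%. With that line in place of 3D cells, EFNA1 was lower than in 2D (-1.87), and P4HA1 (-0.043), PLOD1 (-0.029), VLDLR (-0.094) and WSB1 (0.048) were not called. CCNG2, lower in 3D cells, was higher than 2D in vehicle-treated tet-MUC1shRNA mammospheres (0.47).

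The HIF and oxygen sensor genes did not all move with their targets. Of 10 such genes, 5 were higher and 4 lower in 3D cells, beside 32.0% and 31.7% of all genes. ARNT2 did not pass the filter in the other comparisons, and of the other 9 genes 3 rose and 5 fell on MUC1 silencing (30.7% and 31.6% of all genes). With GO-203 2 of the 9 rose and 2 fell (11.1% and 12.9%), and on MYC silencing 6 rose and 1 fell (30.3% and 28.1%). HIF1A, the alpha subunit found in most cells, was 587, 572 and 600.3 CPM in 2D cells and 318, 327 and 334 CPM in 3D cells, and so was lower in 3D. EPAS1, which encodes HIF-2 alpha, was 29.3, 27.2 and 27.9 CPM in 2D cells and 247, 249 and 242 CPM in 3D cells. On MUC1 silencing HIF1A gave -0.16 ± 0.039 and EPAS1 gave 0.29 ± 0.041, neither falling by the amounts seen in most targets. These are mRNA values, and the level and activity of HIF proteins were not measured here. HIF3A, the third alpha subunit, was higher in 3D and lower on MUC1 silencing, at 0, 0.107 and 0 CPM in 2D cells and 13.4, 15.4 and 12.9 CPM in 3D cells. HIF3A was 2.49, 3.20 and 3.70 CPM with vehicle and 0.508, 0.938 and 0.766 CPM with DOX in the tet-MUC1shRNA line (-2.09 ± 0.24, past both thresholds). It rose with GO-203 (0.42 ± 0.090) and on MYC silencing (2.86 ± 0.17, past both thresholds). EGLN1, the main oxygen sensor, was higher in 3D cells (0.88 ± 0.087) and fell on MUC1 silencing (-0.99 ± 0.12), but a same-strand gene overlaps 55.8% of its exonic sequence and makes its counts uncertain. EGLN3, an oxygen sensor that is also a HIF target, was 23.9, 14.2 and 18.2 CPM with vehicle and 0.0906, 0.398 and 0.0676 CPM with DOX, with no overlap. Of 19 glycolytic hypoxia targets listed for context, 19 were higher in 3D cells, 19 fell on MUC1 silencing, 17 fell with GO-203, and 13 fell and 2 rose on MYC silencing. Their median log2 fold changes were 1.73, -1.81, -0.37 and -0.71. Of 18 further hypoxia targets, 14 were higher and 3 lower in 3D cells, and 16 fell and 2 rose on MUC1 silencing. GO-203 lowered 11 of these 18 and raised 3, and MYC silencing lowered 7 and raised 8.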

How the data were processed

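RNA was taken from BT-549 cells in 7 groups of 3 libraries with a stranded mRNA kit. The deposited table holds raw counts of reads per Ensembl gene, which the authors made by alignment with STAR to GRCh38 and counting with featureCounts. The submitters' processing notes name STAR 2.7.3a and the methods a later release, so the version is uncertain. The annotation release and strand setting are not given in the sources used here. Empty cells were read as 0. Their pattern was the same within each of 4 blocks of libraries. Genes without a value were 6498 in 2D and 3D, 7587 in GO-203, 4952 in tet-MUC1shRNA and 5761 in tet-MYCshRNA. The GO-203 vs. 3D comparison, those of a tet line with 2D or 3D cells, and both interactions therefore cross blocks. How the blocks arose is not given in the sources used here, and their part in the results was not tested.

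Counts were filtered with filterByExpr, scaled by TMM and tested with edgeR 4.0.16 (quasi-likelihood, Benjamini-Hochberg over all genes tested, R 4.3.3), for each pair of groups alone and with an interaction over 12 libraries for differences between effects. A call is an adjusted p below 0.1, and past both thresholds adds a log2 fold change beyond 1.5 either way. Standard errors came from the fold change and its F statistic. RPKM used GENCODE exon lengths. The steps were tested on simulated data, where 99% and 100% of 200 genes changed by 2 on the log2 scale were recovered in 3D vs. 2D and GO-203 designs. Of the unchanged genes, 4 and 5 were called. Smaller changes, such as those with GO-203, were not simulated, so their recovery is not known. Alternatives were DESeq2 1.42.0, other scalings, filters, thresholds and samples. The gene lists, named genes and tests were chosen with earlier results of these data known. All 36 genes are named, with library values for those past both thresholds in at least 1 of the 4 main comparisons.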

Additional observations from a re-analysis of the deposited data

Results flagged for a closer look

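The effect of DOX differed between the tet-MUC1shRNA and tet-MYCshRNA lines, past both thresholds in edgeR's interaction test, for 19 hypoxia targets, all with a difference below 0, beside 8.56% of the 21585 genes tested below 0 and 7.59% above 0 by that rule. As log2 differences, MUC1 minus MYC silencing, the signature genes gave -4.85 (PPFIA4), -3.68 (TMEM45A), -2.18 (ANKRD37) and -1.69 (SPAG4). The growth and lipid genes gave -3.71 (NDRG1), -2.25 (CCNG2) and -2.98 (HILPDA). The collagen genes gave -2.82 (P4HA2), -2.40 (P4HA1), -1.98 (PLOD1) and -1.97 (LOX). The chromatin and transcription genes gave -2.41 (RORA), -2.18 (KDM4B) and -1.88 (KDM3A). BNIP3 gave -2.88, RAB20 -2.31, ERO1A -2.20, VEGFA -1.67 and STC2 -1.51. MUC1 mRNA itself fell on MUC1 silencing and rose on MYC silencing. No explanation of these differences was tested.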

How the results depend on the processing

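Of 4042 fold changes of single targets recomputed under the alternatives, 3939 kept direction and side of the threshold, 69 lost the call, 15 gained it and 19 changed sign. The count of targets lowered by MUC1 silencing stayed between 35 and 36 and that raised in 3D vs. 2D cells between 26 and 31. The count of raised targets with GO-203, 1, became 2 with library size alone, 0 with all 21 libraries in 1 fit, and 1 to 2 without 1 library. On MYC silencing, leaving out 1 library gave 6 to 12 raised targets and 0 to 1 past both thresholds. The cause was not tested.

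With vehicle-treated tet-MYCshRNA mammospheres in place of 3D cells, EFNA1 (-1.87), P4HA1 (-0.043) and PLOD1 (-0.029) changed sign against 2D, as did CCNG2 (0.47) with the tet-MUC1shRNA line. With library size alone the difference between MUC1 and MYC silencing turned positive for BHLHE41 (0.048) and MAFF (0.046), where the median of all genes moved to 0.25. Without 1 library, values not called in the full set changed sign over these ranges. With GO-203 they were -0.13 to 0.040 for EFNA3, -0.070 to 0.016 for MAFF, -0.20 to 0.017 for ERO1A, -0.11 to 0.028 for WSB1 and -0.13 to 0.094 for TMEM45A. On MYC silencing they were -0.055 to 0.21 for BHLHE40, -0.0089 to 0.12 for ERO1A and -0.20 to 0.44 for ANKRD37, and between the hairpins -0.29 to 0.015 for BHLHE41. At the ends of these ranges ERO1A was called with GO-203 (without GO-203 replicate 3), and BHLHE40 and ANKRD37 were called higher on MYC silencing (without DOX replicate 1).

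Same-numbered libraries did not deviate together in every pair (correlations of -0.21 to 0.081 in 3D vs. 2D, -0.062 to 0.12 in MUC1, 0.022 to 0.23 in GO-203 and -0.43 to 0.012 in MYC), and correlated best with their own number in 1, 1, 2 and 0 of 3 cases. With a replicate block, 30 targets were raised and 6 lowered in 3D vs. 2D, 36 lowered on MUC1 silencing with 16 past both thresholds, 2 raised and 20 lowered with GO-203, and 8 raised (LOX and SPAG4 lost) and 17 lowered on MYC silencing, where 1 passed both. At 8 to 36 counts of RAB20 and 17 to 19 of PPFIA4 after MUC1 silencing, depth limits how exactly their falls can be stated.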

Other observations

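Levels per length spread widely within the 36 targets. In 3D cells the mean ran from 0.315 RPKM for RORA to 297 RPKM for DDIT4 with a median of 16.5 RPKM, and in DOX-treated tet-MUC1shRNA mammospheres from 0.0336 RPKM for PPFIA4 to 178 RPKM for DDIT4 with a median of 7.52 RPKM. EFNA1 differed between the lines before DOX, at 26.4, 23.2 and 21.2 CPM in vehicle-treated tet-MUC1shRNA mammospheres and 3.66, 3.68 and 2.94 CPM in vehicle-treated tet-MYCshRNA mammospheres.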
